A study of Mus musculus with 30 samples.

Results

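The genes described are Pou5f1 (which encodes Oct4), Sox2, Sall4, Utf1, Dppa2, Dppa4 and Dppa5a, a set of 7 core ESC identity genes picked by symbol. Of these, 6 had probes on the mouse bead array, with 13 probes among the 25697 deposited for 18097 gene symbols. Of the 6, 5 matched by their own symbol, and Dppa5a was found under Dppa5, which RefSeq lists as its synonym. Dppa2 was not analysed here. All 13 probes passed the detection filter described below, which left 15151 probes of 11177 genes to test.

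The arrays measured total RNA of Ainv15 mouse ESCs that express the reverse tetracycline transactivator rtTA. Each rescue clone carries an shRNA against 1 endogenous mRNA together with an shRNA-immune cDNA of the same gene, which is expressed only while doxycycline (Dox) is present, here at 1 μg/ml. The 5 groups were Bub1b_R, Chek1_R, Ppm1g_R, Ppp2r1b_R and the control rescue clone Ctrl_R, each sampled with Dox (+Dox) and 5 days after its removal (−Dox), with 3 arrays per condition and 30 in all. The Ctrl_R samples carry earlier record numbers than those of the other clones, and the study names public array data that it reused. The sample titles do not say whether Ctrl_R was grown and run alongside the others. The study made 3 clones for each gene, but the labels name a rescue clone only by its gene and do not say whether the 3 arrays of a group came from 1 clone or several, or from separate cultures. Clone and depleted gene therefore cannot be told apart, and p-values measure the spread between arrays, which may be technical.

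The shRNAs that set the groups apart are given as the study lists them, 5′ to 3′, in lower case throughout because no part of them is singled out.
Bub1b_R: gcacacttagacacatcagca
Chek1_R: cccatgtagtagtatcacttt
Ppm1g_R: gccttgtactgtgccaaatat
Ppp2r1b_R: gctccgtctcaacagtattaa

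Oct4 is a POU-domain factor that binds an octamer motif, usually side by side with the HMG-box factor Sox2, and ESCs lose their identity when either is removed or misexpressed. Sall4 is a zinc-finger partner of Oct4 that recruits a deacetylase complex, while Utf1 is a chromatin-bound ESC protein whose gene is a classical Oct4 and Sox2 target. Dppa2 and Dppa4 are SAP-domain proteins that act as a pair on chromatin, and Dppa5a is a KH-domain RNA-binding protein that ESCs make in large amounts.

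By RefSeq positions on GRCm38.p6, Sall4 lies on chromosome 2 (168748332 to 168767201), Sox2 on chromosome 3 (34649995 to 34652461) and Utf1 on chromosome 7 (139943856 to 139945112). Dppa5a lies on chromosome 9 (78367052 to 78368199) and Pou5f1 on chromosome 17 (35506032 to 35510777). Dppa4 (48283735 to 48294292) and Dppa2 (48310274 to 48319513) are neighbours on chromosome 16. RefSeq promoter windows were at hand for 3 of the 7 genes, and the 100 bases before the annotated start are shown for them because Oct4 and Sox2 act on their own genes and on Utf1.
Pou5f1, chr17:35505932-35506031, plus strand: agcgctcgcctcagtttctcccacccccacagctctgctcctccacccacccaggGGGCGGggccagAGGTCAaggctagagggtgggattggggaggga
Sox2, chr3:34649895-34649994, plus strand: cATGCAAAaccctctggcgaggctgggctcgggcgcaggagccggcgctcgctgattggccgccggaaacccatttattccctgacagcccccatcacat
Utf1, chr7:139943756-139943855, plus strand: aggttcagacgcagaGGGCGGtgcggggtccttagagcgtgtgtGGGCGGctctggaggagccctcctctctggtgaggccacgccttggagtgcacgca
Capitals mark exact matches, on either strand, to the octamer core ATGCAAA, the Sox site CATTGT, the GC box GGGCGG or the nuclear receptor half-site AGGTCA. Over the 250 bases before each start, 4.12% of 32851 RefSeq windows held the octamer core, 10.7% the Sox site, 32.7% the GC box and 14% the half-site. The Sox2 window held 1 octamer core, 2 GC boxes and 1 half-site, the Utf1 window 4 GC boxes and no octamer core, and the Pou5f1 window 1 GC box and 1 half-site. A further RefSeq start of Pou5f1, whose last 100 bases upstream are chr17:35508707-35508806 and are not shown, held 1 Sox site and none of the other motifs. A match describes the letters and not a bound site. Bases beyond the 250 were not searched, so a motif absent from a window may lie elsewhere at the gene.

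Signals were background-corrected and quantile-normalized over the 30 arrays (log2), and the probe with the highest mean level stands for a gene. Replicate arrays correlated with r between 0.9901 and 0.9966 across probes. A gene was called, and is said to have fallen or risen, at a limma adjusted p under 0.05 together with a change of at least 1.5-fold, which is 0.585 on the log2 scale. The arrays form 2 sets by their lowest detected signal, which lay between 12.9 and 20.9 for Bub1b_R with Ctrl_R (12 arrays) and between 27.8 and 58.1 for the remaining clones (18 arrays), so array set and clone cannot be told apart where Chek1_R, Ppm1g_R or Ppp2r1b_R is set against Ctrl_R. Of the depleted mRNAs, Ppm1g fell in its own clone on Dox withdrawal (−1.25) and the values of Bub1b (−0.14) and Ppp2r1b (0.20) did not pass. Chek1 was higher, not lower, without Dox in Chek1_R, since 0 of 3 +Dox arrays but 3 of 3 −Dox arrays detected it, which puts it at least 1.35-fold above its +Dox level after withdrawal (limma adjusted p 0.00115). Its mean level there was 5.31 with Dox and 6.01 without, against 7.18 and 7.08 in Ctrl_R, across the array sets. The study's Bub1b and Chek1 rescue cDNAs lack the shRNA target in the 3′ UTR. Whether the probes of these genes read the rescue copy, and whether the labels are right, was not tested. Directions for this clone are given for the arrays labelled Chek1_R.

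On Dox withdrawal, Utf1 fell in 3 of the 4 rescue clones and in no other gene-clone pair of the 24 was a core ESC identity gene called. Utf1 was lower by 1.55-fold in Bub1b_R, 1.74-fold on the arrays labelled Chek1_R and 1.603-fold in Ppp2r1b_R. Dppa4 was lower by the adjusted p in the same 3 clones and closest to the fold limit on the arrays labelled Chek1_R (1.497-fold), Pou5f1 and Sox2 each passed the adjusted p in some clones with changes under 1.5-fold, Sall4 did so in 1 clone, and Dppa5a in none. In Ctrl_R none of the 6 genes was called.

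**Figure D1:**
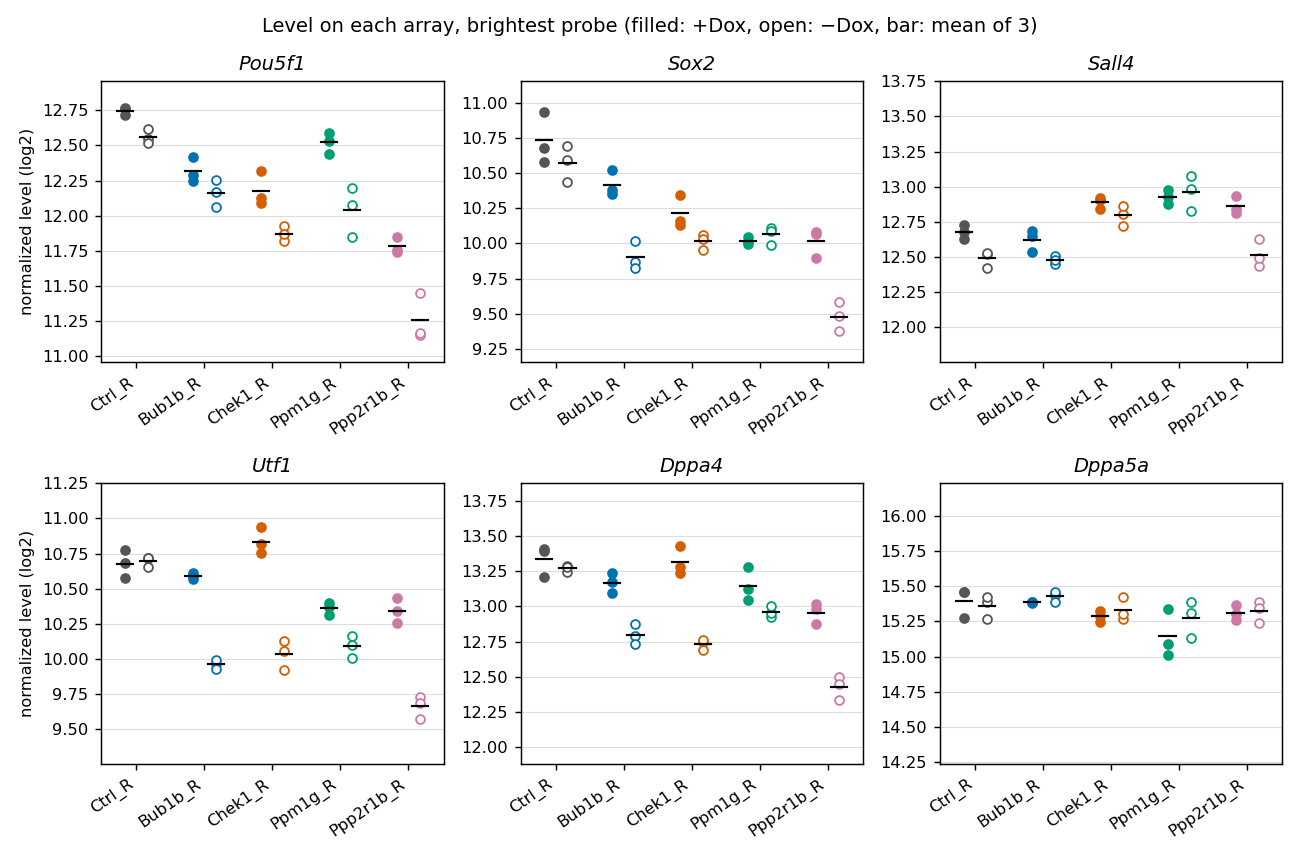
Normalized level (log2, vertical axis, spanning the same range of 2 log2 units in each panel) of the brightest probe of 6 core ESC identity genes on 30 arrays, by rescue clone, with filled points for +Dox, open points for −Dox and a bar for the mean of 3 arrays. Utf1 and Dppa4 lie lower on every −Dox array than on every +Dox array of the same clone in Bub1b_R, Ppm1g_R, Ppp2r1b_R and on the arrays labelled Chek1_R, while the Dppa5a points of both conditions overlap in each clone.

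The members called must be read against how many genes moved. Among 6 members, 1 fell in Ppp2r1b_R (against 2.2% of all genes tested), 1 on the arrays labelled Chek1_R (5.24%), 1 in Bub1b_R (2.96%), 0 in Ppm1g_R (2.2%) and 0 in Ctrl_R (0.447%). By the adjusted p alone, 13 of the 24 pairs were lower and 0 higher. These were 3 of 6 members in Bub1b_R (Sox2, Utf1 and Dppa4, against 14.2% of genes), 3 on the arrays labelled Chek1_R (Pou5f1, Utf1 and Dppa4, against 18.2%), 2 in Ppm1g_R (Pou5f1 and Utf1, against 12.7%) and 5 in Ppp2r1b_R (all but Dppa5a, against 14%). In Ctrl_R it was 0 of 6, against 4.04%, with 2 members (Pou5f1 and Sall4) at an unadjusted p under 0.05 by limma and the same 2 by the methods' t-test, which called 0 after adjustment. The median change of the 6 members was −0.53 in Ppp2r1b_R, −0.27 in Bub1b_R, −0.08 in Ppm1g_R, −0.11 in Ctrl_R and −0.25 on the arrays labelled Chek1_R, while the medians of all genes lay between −0.02 and −0.01. In bulk RNA, fewer cells that express a gene and less of its RNA per cell cannot be told apart.

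**Figure D2:**
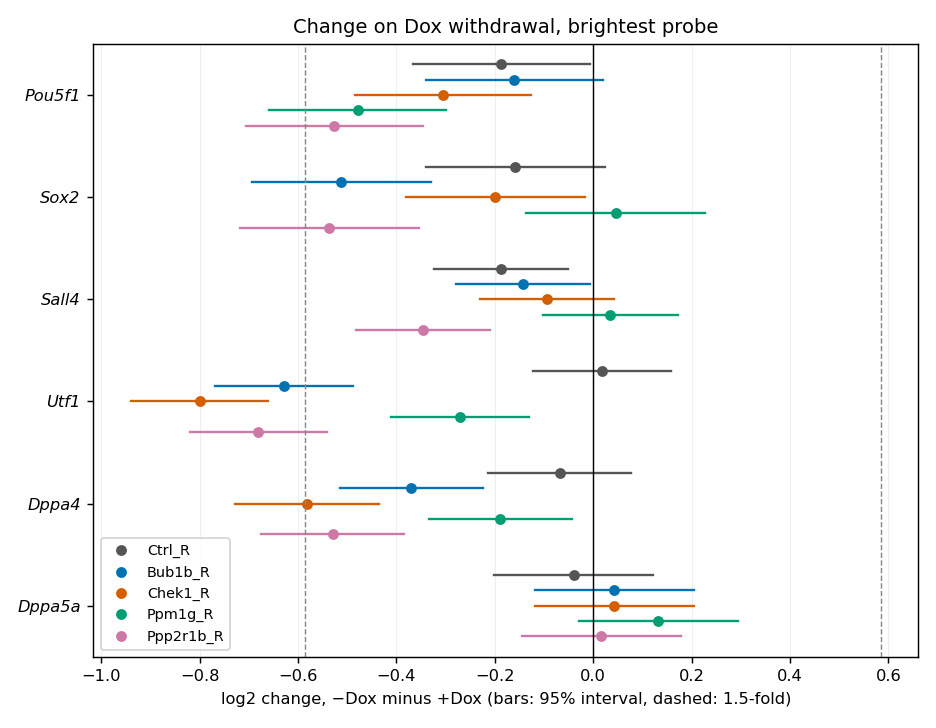
Change on Dox withdrawal (log2, −Dox minus +Dox, horizontal axis) of the brightest probe of each gene in 5 clones, with 95% intervals from the limma fit and dashed lines at 1.5-fold. Utf1 in Bub1b_R (−0.63), in Ppp2r1b_R (−0.68) and on the arrays labelled Chek1_R (−0.80) are the points beyond the lower dashed line, and the Dppa5a intervals all include 0.

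Pou5f1 was measured by 2 probes, both detected on all 30 arrays. Its levels in Ctrl_R were 12.72, 12.76 and 12.76 with Dox and 12.62, 12.55 and 12.51 without. In Bub1b_R they were 12.29, 12.25 and 12.42 with Dox and 12.06, 12.17 and 12.25 without, and this was the clone in which the conditions overlapped for Pou5f1. On the arrays labelled Chek1_R the levels were 12.12, 12.32 and 12.09 with Dox and 11.93, 11.82 and 11.87 without. Ppm1g_R gave 12.59, 12.53 and 12.44 with Dox and 12.20, 11.85 and 12.08 without. Ppp2r1b_R had the lowest levels of the 5 clones in both conditions, with 11.76, 11.85 and 11.74 with Dox and 11.15, 11.45 and 11.16 without.
The change was −0.53 in Ppp2r1b_R (SE 0.09, adjusted p 9.06e-05), −0.48 in Ppm1g_R (adjusted p 0.000239) and −0.31 on the arrays labelled Chek1_R (adjusted p 0.00882), each lower in 9 of 9 array pairs and each under 1.5-fold. It was −0.16 in Bub1b_R (95% interval −0.34 to 0.02) and −0.19 in Ctrl_R (−0.37 to −0.01), neither past the adjusted p. The dimmer probe gave −0.43 in Ppp2r1b_R, −0.36 in Ppm1g_R, −0.37 on the arrays labelled Chek1_R, −0.15 in Bub1b_R and −0.13 in Ctrl_R, so both probes gave the same sign in each clone. Set against the change in Ctrl_R, the Pou5f1 change passed in no clone, the largest difference being −0.34 in Ppp2r1b_R (SE 0.12, adjusted p 0.0908). Without Ppp2r1b_R −Dox replicate 2, the array with the highest Pou5f1 level of its group, the change in that clone was −0.62 and was called. Under median scaling the Pou5f1 change in Ppm1g_R was −0.59 (adjusted p 0.000124) and was called.

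Sox2 had 2 probes that did not tell the same story. The brighter one read 10.68, 10.58 and 10.94 with Dox in Ctrl_R and 10.59, 10.70 and 10.44 without, which overlap. In Bub1b_R it read 10.35, 10.38 and 10.52 with Dox and 9.87, 9.83 and 10.02 without. In Ppp2r1b_R it read 10.07, 10.08 and 9.90 with Dox and 9.37, 9.58 and 9.49 without. In these latter clones every −Dox array was below every +Dox array. The arrays labelled Chek1_R gave 10.16, 10.35 and 10.13 with Dox and 9.95, 10.06 and 10.03 without, and were separated in the same way. Ppm1g_R gave 10.00, 10.01 and 10.05 with Dox and 9.99, 10.11 and 10.09 without, which overlap.
The brighter probe changed by −0.54 in Ppp2r1b_R (SE 0.09, adjusted p 8.34e-05) and by −0.51 in Bub1b_R (adjusted p 0.000103), both under 1.5-fold. Its values were 0.05 in Ppm1g_R (95% interval −0.14 to 0.23), −0.20 on the arrays labelled Chek1_R (adjusted p 0.0929) and −0.16 in Ctrl_R. Without Ppp2r1b_R −Dox replicate 2 the change in Ppp2r1b_R was −0.59, and without +Dox replicate 3 of that clone it was −0.60, and both were called.

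The dimmer Sox2 probe was detected on all 30 arrays as well and differed in 2 respects. In Ctrl_R it read 7.63, 7.71 and 7.98 with Dox and 8.27, 8.26 and 8.64 without, a rise of 0.62 (SE 0.16, adjusted p 0.0174), with −Dox above +Dox in 9 of 9 pairs. In the 4 rescue clones its changes were −0.32, −0.27, −0.14 and −0.19 (in the order Bub1b_R, Chek1_R, Ppm1g_R and Ppp2r1b_R), none past the adjusted p. Its level was also far apart between the array sets, between 6.94 and 8.64 in the set of 12 that holds Ctrl_R, and between 8.52 and 9.84 in the set of 18. The brighter probe spanned 9.83 to 10.94 and 9.37 to 10.35 on the same sets, in the opposite order. Which of the probes follows the Sox2 mRNA was not tested, and the sequences of the probes were not used here.

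**Figure D3:**
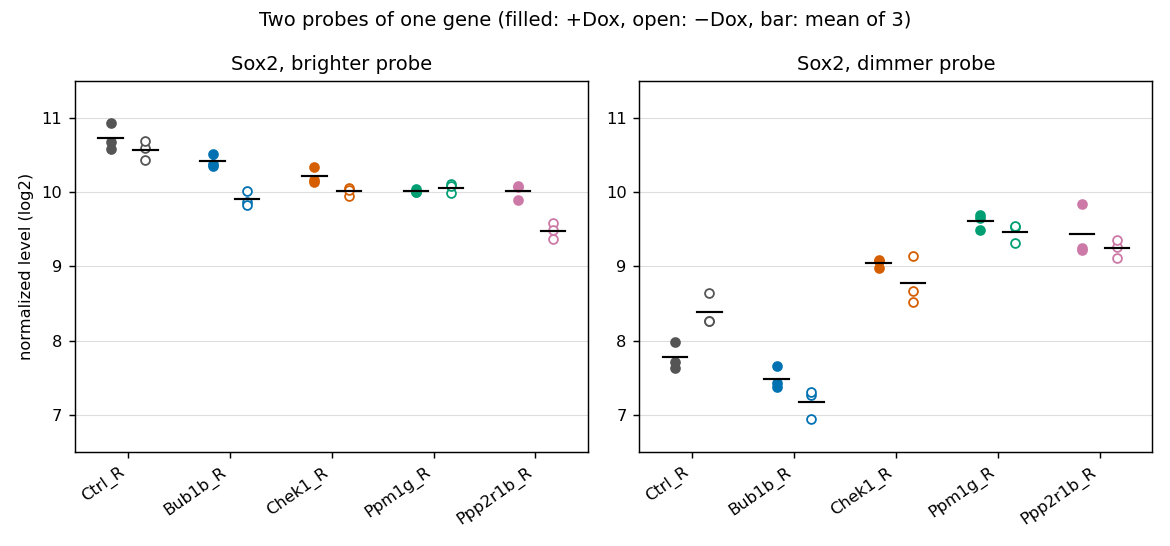
Normalized level (log2, vertical axis) of the brighter and the dimmer Sox2 probe on 30 arrays, by clone, with filled points for +Dox, open points for −Dox and a bar for the mean of 3 arrays. The dimmer probe rose by 0.62 in Ctrl_R and read 8.52 or more on each of the 18 arrays outside the set of Ctrl_R, while the brighter probe was highest in Ctrl_R.

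Sall4, the zinc-finger partner, had a smaller mean change over the 4 clones than Pou5f1 and Sox2. On the brightest of 3 probes its level ran from 12.43 to 12.73 in Ctrl_R, from 12.45 to 12.69 in Bub1b_R, from 12.43 to 12.93 in Ppp2r1b_R, from 12.83 to 13.08 in Ppm1g_R and from 12.72 to 12.92 on the arrays labelled Chek1_R. Only in Ppp2r1b_R did the change pass the adjusted p, at −0.35 (SE 0.07, adjusted p 0.000418, 9 of 9 pairs), which is 1.27-fold. The changes were −0.19 in Ctrl_R (95% interval −0.32 to −0.05), −0.14 in Bub1b_R, 0.04 in Ppm1g_R and −0.09 on the arrays labelled Chek1_R. The next probe, detected on all 30 arrays, gave −0.01 in Ppp2r1b_R (adjusted p 0.971), and no Sall4 probe was called on Dox withdrawal in any clone. The last was detected on 6 of 30 arrays and gives no level.

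Utf1, the Oct4 and Sox2 target, had 1 probe, detected on all 30 arrays. In Ctrl_R it read 10.68, 10.57 and 10.78 with Dox and 10.72, 10.66 and 10.72 without, so that removing Dox left the groups overlapping. In Bub1b_R it read 10.57, 10.59 and 10.61 with Dox and 9.97, 9.99 and 9.93 without. On the arrays labelled Chek1_R it read 10.94, 10.82 and 10.75 with Dox and 10.13, 9.92 and 10.06 without. These clones began near the Ctrl_R level and ended below it on each −Dox array. Ppm1g_R gave 10.31, 10.37 and 10.40 with Dox and 10.16, 10.10 and 10.01 without, and Ppp2r1b_R gave 10.34, 10.43 and 10.26 with Dox and 9.57, 9.73 and 9.69 without.
The change was −0.80 on the arrays labelled Chek1_R (SE 0.07, adjusted p 1.42e-09), −0.68 in Ppp2r1b_R (adjusted p 8.64e-08) and −0.63 in Bub1b_R (adjusted p 1.76e-07), each called and lower in 9 of 9 pairs. In Ppm1g_R it was −0.27 (adjusted p 0.00473, 9 of 9 pairs), past the adjusted p and at 1.21-fold short of the limit. In Ctrl_R it was 0.02 (95% interval −0.12 to 0.16).
Compared with the change in Ctrl_R, the Utf1 change was lower by a called amount in 3 clones, −0.82 on the arrays labelled Chek1_R (SE 0.10, adjusted p 8.87e-07), −0.70 in Ppp2r1b_R (adjusted p 4.8e-05) and −0.65 in Bub1b_R (adjusted p 6.41e-05), and was −0.29 in Ppm1g_R (adjusted p 0.0497). These comparisons share the 6 Ctrl_R arrays. No other member was called in this comparison by its brightest probe. The share of all genes called lower there was 1.64% in Ppp2r1b_R, 2.61% in Bub1b_R, 2.69% in Ppm1g_R and 4.97% on the arrays labelled Chek1_R. Under median scaling of the arrays, in place of quantiles, the Utf1 change in Bub1b_R was −0.58, short of 1.5-fold.

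Dppa4, the partner of Dppa2 in ESC chromatin, followed Utf1 most closely of the members. In Ctrl_R it read 13.41, 13.40 and 13.21 with Dox and 13.25, 13.29 and 13.28 without. In Bub1b_R it read 13.17, 13.24 and 13.10 with Dox and 12.79, 12.73 and 12.87 without. On the arrays labelled Chek1_R it read 13.24, 13.28 and 13.43 with Dox and 12.75, 12.76 and 12.69 without. Every rescue clone had its −Dox arrays below its +Dox arrays, whereas those of Ctrl_R overlapped. Ppm1g_R gave 13.04, 13.28 and 13.12 with Dox and 12.92, 12.95 and 13.00 without, and Ppp2r1b_R gave 12.98, 13.02 and 12.87 with Dox and 12.50, 12.33 and 12.45 without.
The change was −0.58 on the arrays labelled Chek1_R (SE 0.07, adjusted p 5.26e-07), at 1.497-fold the member just outside the limit, and it was called (−0.59 to −0.62) when +Dox replicate 1 or 2 or −Dox replicate 1 or 2 of that clone was left out. It was −0.53 in Ppp2r1b_R (adjusted p 6.22e-06), −0.37 in Bub1b_R (adjusted p 0.00033), −0.19 in Ppm1g_R (adjusted p 0.0555) and −0.07 in Ctrl_R. Of the other probes, the brighter was called on the arrays labelled Chek1_R (−0.61, SE 0.09, adjusted p 9.6e-06) and gave −0.45 in Ppp2r1b_R and −0.37 in Bub1b_R. Relative to Ctrl_R this probe was called in 2 clones, with −0.78 on the arrays labelled Chek1_R (adjusted p 9e-05) and −0.625 in Ppp2r1b_R (adjusted p 0.00358), where the brightest probe gave −0.51 (adjusted p 0.000586) and −0.46 (adjusted p 0.00518). The dimmest probe was detected on 17 of 30 arrays.

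Dppa5a, the RNA-binding protein gene, was measured at the top of the scale, where the array may not resolve a change. Its brightest probe read between 15.01 and 15.46 on all 30 arrays, between 77.8% and 100% of the highest signal on the array, and took ranks 2 to 35 of all probes. The change was 0.13 in Ppm1g_R (95% interval −0.03 to 0.29), 0.02 in Ppp2r1b_R (−0.15 to 0.18) and −0.04 in Ctrl_R (−0.20 to 0.12), and it was 0.04 (−0.12 to 0.20) both in Bub1b_R and on the arrays labelled Chek1_R. Deposited intensities before normalization ran from 24218 to 31480 in Ppp2r1b_R and from 45468 to 53927 on the arrays labelled Chek1_R, so the normalized levels hide a spread that quantile normalization removes. Under median scaling the Dppa5a difference of Ppp2r1b_R from Ctrl_R was −1.24 with Dox and −1.01 without, but the highest signal of any probe also differed, from 29539 to 36310.1 on the Ppp2r1b_R arrays and from 41584 to 49494 on those of Ctrl_R. No difference in Dppa5a is read from these values.

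Averaged over the 4 rescue clones, 1 of 6 members fell (against 1.58% of genes), Utf1 at −0.59 (SE 0.03, adjusted p 5.24e-13), which is 1.51-fold. By the adjusted p alone 5 of 6 were lower, against 26.1% of genes, with −0.42 for Dppa4, −0.37 for Pou5f1, −0.30 for Sox2 and −0.14 for Sall4, while Dppa5a stood at 0.06. In Ctrl_R the changes were 0.02 for Utf1, −0.07 for Dppa4, −0.19 for Pou5f1, −0.16 for Sox2, −0.19 for Sall4 and −0.04 for Dppa5a. The Sall4 mean was thus no larger than its Ctrl_R change. The mean of the clones was not tested against the change in Ctrl_R. The Utf1 call rests on the fold limit, since it was lost at an offset of 50 (−0.58), under median scaling (−0.56), and without the arrays labelled Chek1_R (−0.53, adjusted p 1.39e-10), as well as without any 1 of 5 single arrays (Chek1_R +Dox replicate 1, Chek1_R −Dox replicate 2, Ppm1g_R −Dox replicate 3, Ppp2r1b_R +Dox replicate 2 and Ppp2r1b_R −Dox replicate 1, where it was −0.58 in each case). Each of these values kept an adjusted p under 0.05.

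The clones were not alike. An F-test of whether the change differs among the 4 clones passed for 4 of 6 members, against 26% of genes, with an adjusted p of 0.00132 for Utf1, 0.00263 for Sox2, 0.0176 for Dppa4 and 0.0236 for Sall4. It was 0.0861 for Pou5f1 and 0.831 for Dppa5a. These values are of the brightest probe, as are the differences between pairs of clones below. The other probes of Sox2 (adjusted p 0.92), Sall4 (0.745 and 0.926) and Dppa4 (0.056 and 0.968) did not pass the F-test, and Utf1 has 1 probe. Without Ppm1g_R +Dox replicate 1 the F-test passed for 2 members. Of the 6 pairs of clones, 3 differed in the Utf1 change by the adjusted p, all of them with Ppm1g_R, which was the clone where Utf1 changed least. Taken as one change minus the other, Utf1 gave −0.53 for the arrays labelled Chek1_R minus Ppm1g_R (SE 0.10, adjusted p 0.000381), −0.36 for Bub1b_R minus Ppm1g_R (adjusted p 0.0307) and 0.41 for Ppm1g_R minus Ppp2r1b_R (adjusted p 0.00546). Ppm1g_R minus Ppp2r1b_R also passed for Sox2 (0.58, adjusted p 0.00285), Sall4 (0.38, adjusted p 0.00764) and Dppa4 (0.34, adjusted p 0.0232), Bub1b_R minus Ppm1g_R for Sox2 (−0.56, adjusted p 0.00877), and the arrays labelled Chek1_R minus Ppm1g_R for Dppa4 (−0.39, adjusted p 0.00902). No pair differed in Pou5f1 or Dppa5a.

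Against Ctrl_R without Dox, the members were lower in 9 of 24 gene-clone pairs and higher in 0. Utf1 was called in each clone, at −1.03 in Ppp2r1b_R, −0.73 in Bub1b_R, −0.61 in Ppm1g_R and −0.66 on the arrays labelled Chek1_R. Pou5f1 was called in Ppp2r1b_R (−1.30, 2.47-fold, adjusted p 4.68e-12) and on the arrays labelled Chek1_R (−0.69), Sox2 in Ppp2r1b_R (−1.10) and Bub1b_R (−0.67), and Dppa4 in Ppp2r1b_R (−0.84). That was 4 of 6 members in Ppp2r1b_R against 16% of genes, 2 in Bub1b_R against 12.5%, 1 in Ppm1g_R against 16.6%, and 2 on the arrays labelled Chek1_R against 14.7%. These comparisons share the 3 −Dox Ctrl_R arrays, and all but that of Bub1b_R cross the array sets. Within the set, in Bub1b_R, median scaling left neither call (Utf1 −0.53, Sox2 −0.47), and it also took away the Utf1 call on the arrays labelled Chek1_R (−0.53). In Bub1b_R the dimmer Sox2 probe was lower as well (−1.22, 95% interval −1.55 to −0.89). The Ppm1g_R call of Utf1 was lost without −Dox replicate 3 (−0.56). The dimmer Sox2 probe went the other way in Ppp2r1b_R without Dox (0.85, 95% interval 0.52 to 1.18). With the probes of a gene averaged, neither Sox2 (−0.12, adjusted p 0.206) nor Dppa4 (−0.52) was called in Ppp2r1b_R, so the Sox2 call rests on the brighter probe.

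Part of the difference from Ctrl_R was there with Dox. With Dox the members were lower in 3 of 24 pairs, Pou5f1 in Ppp2r1b_R (−0.96, adjusted p 1.7e-09) and Sox2 in Ppp2r1b_R (−0.72) and Ppm1g_R (−0.72). By clone this was 2 of 6 in Ppp2r1b_R (against 13% of genes), 1 in Ppm1g_R (14.1%), 0 in Bub1b_R (6.44%) and 0 on the arrays labelled Chek1_R (7.86%). For Utf1 the difference with Dox was −0.33 in Ppp2r1b_R, −0.32 in Ppm1g_R, −0.09 in Bub1b_R and 0.16 on the arrays labelled Chek1_R, none called. Pou5f1 in Ppp2r1b_R was thus already 1.95-fold below Ctrl_R with Dox. Median scaling gave 7 called pairs with Dox in place of 3. It added Pou5f1 on the arrays labelled Chek1_R (−0.66), Dppa4 in Ppp2r1b_R (−0.88), and Dppa5a in Ppm1g_R (−0.93) and Ppp2r1b_R (−1.24). The Dppa5a pairs are not read, as stated above, and the share of all genes was not computed under that scaling. Without Chek1_R +Dox replicate 2 there were 5 pairs, Pou5f1 (−0.64) and Sox2 (−0.59) of that clone being added. The dimmer Sox2 probe went the other way, with 1.83 in Ppm1g_R, 1.66 in Ppp2r1b_R and 1.27 on the arrays labelled Chek1_R above Ctrl_R with Dox. Sall4 was higher than Ctrl_R without Dox by 0.47 in Ppm1g_R and 0.31 on the arrays labelled Chek1_R by its brightest probe, under 1.5-fold, while its next probe gave −0.65 and −0.66, both called, so no direction is given for it.

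**Figure D4:**
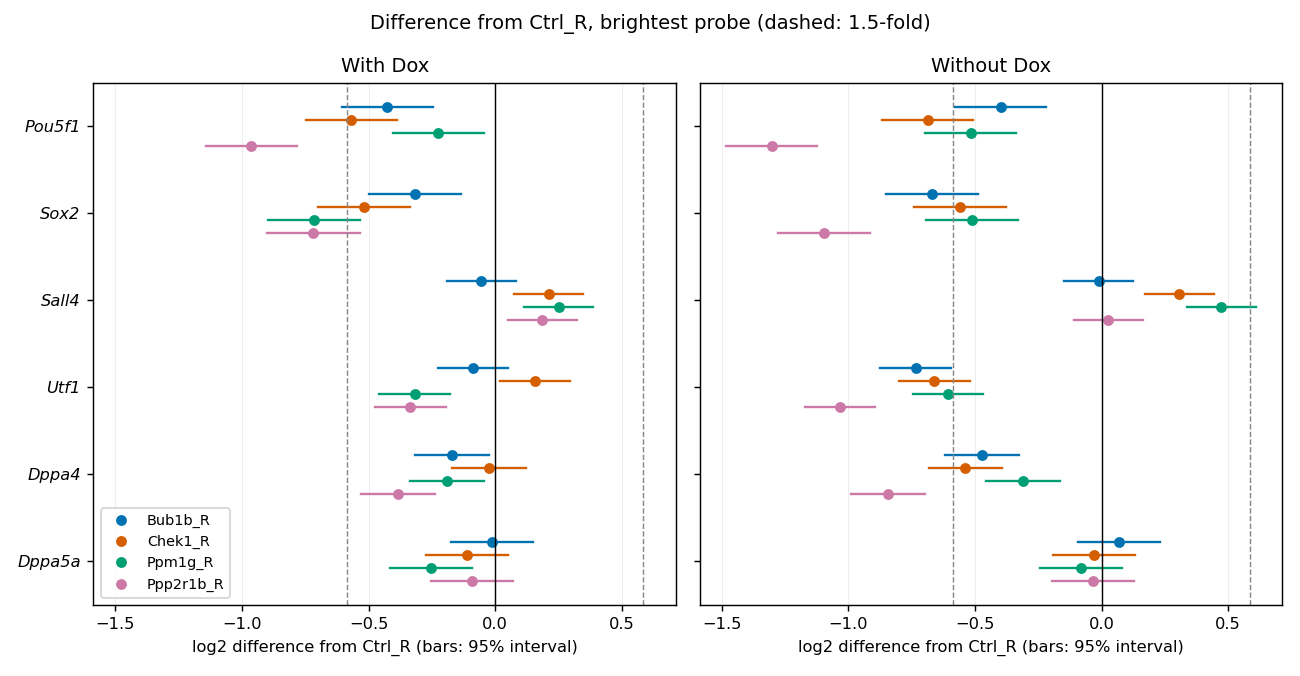
Difference of each rescue clone from Ctrl_R (log2, horizontal axis) for the brightest probe of each gene, with Dox on the left and without Dox on the right, with 95% intervals from the limma fit and dashed lines at 1.5-fold. Pou5f1 in Ppp2r1b_R lies at −0.96 with Dox and −1.30 without, and Utf1 moves past the lower dashed line in each clone without Dox.

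How the members moved with each other was read as Pearson's r of normalized levels over the 30 arrays after the mean of each clone had been taken off, as a description only, since the arrays share clones, the Dox contrast and normalization. Utf1 and Dppa4 had the highest r (0.895). Utf1 had 0.764 with Sox2 and 0.744 with Pou5f1, and Pou5f1 and Sox2 had 0.613 with each other. Dppa5a had r between −0.26 and −0.04 with the other 5. Among all genes tested, those nearest to Utf1 were Mreg (0.964) and Inpp5d (0.961), and those nearest to Dppa4 were Kndc1 (0.934) and Aldh3a1 (0.922). Pou5f1 was nearest to Cbr3 (0.899) and 2410022L05Rik (0.89), Sox2 to 2410081M15Rik (0.885) and Cobl (0.879), Sall4 to Bcas3 (0.877) and Dnajc6 (0.856), and Dppa5a to Cd24a and Dok1 (both 0.678).

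Genes tied to the members by function were followed through lists. Of 8 tested genes with Oct4-Sox2 enhancers, 4 of 32 gene-clone pairs fell and 0 rose, where between 2.2% and 5.24% of all genes fell in a clone. Fgf4, a growth factor whose enhancer is bound by Oct4 and Sox2, fell in Bub1b_R (−0.96), in Ppm1g_R (−0.75) and on the arrays labelled Chek1_R (−0.91), with −0.19 in Ppp2r1b_R and 0.06 in Ctrl_R. The remaining call was Zfp42 in Ppp2r1b_R (−0.80), named because it completes the count, as is Otx2 among the genes of cells leaving the ESC state, both chosen after their values were seen. In the mean of the 4 clones Fgf4 was the 1 gene of the list that fell (−0.70, adjusted p 1.18e-11), followed in size by Fbxo15 (−0.40) and Tdgf1 (−0.33), which were not called, and the list's median was −0.28 against −0.02 over all genes.
Of the naive pluripotency network 9 genes were tested, with 4 of 36 pairs lower, against the same 2.2% to 5.24% of all genes. Tcl1, an Akt co-activator, fell in Bub1b_R (−0.87) and Ppp2r1b_R (−0.97) and stood at −0.39 in Ctrl_R. Esrrb, an orphan nuclear receptor, fell in Ppp2r1b_R (−0.83) and read −0.31 in Ctrl_R, and Zfp42 made up the count. Klf2, a naive-state zinc-finger factor, had −0.54 in Bub1b_R and −0.58 in Ppp2r1b_R, both just short of the limit.

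Protein partners of Oct4 and Sall4 moved little. Of 16 tested, 2 of 64 pairs rose (against 2.43% to 4.68% of all genes in a clone) and 0 fell, both of them Arid3b, a DNA-binding protein, at 0.62 in Bub1b_R and 0.68 on the arrays labelled Chek1_R. Chd4, the helicase of the NuRD deacetylase complex, had 0.28 in the mean of the 4 clones and 0.43 in Ctrl_R, and Rbbp7, a histone-binding subunit, 0.25 and 0.14, none called. The median of the list was −0.01.
Among 6 tested relatives of the members, by family or by name, 2 of 24 pairs fell (against 2.2% to 5.24% of all genes), Sox15 in Bub1b_R (−0.73) and Dppa3 in Ppp2r1b_R (−0.78). Pou3f1, a POU factor of later epiblast, had 0.25 in the mean and was not called.
Dppa2 and Dppa4 are known as activators of genes of the 2-cell-like state, of which 4 were tested. Of these, 3 rose in Ctrl_R, against 0.698% of genes, namely Tcstv1 (1.01), Tcstv3 (0.95) and Gm397 (0.83), while Dppa4 had −0.07 there. The same 3 rose on the arrays labelled Chek1_R (0.76, 0.85 and 0.87, against 4.68% of genes), where Dppa4 had −0.58. In Bub1b_R only Tcstv3 rose (1.02, against 3.28% of genes), and in Ppm1g_R (2.43%) and Ppp2r1b_R (2.77%) none did.

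Genes of cells leaving the ESC state had the largest median change of the 7 lists in the mean of the 4 clones, though not in Ppp2r1b_R, where the naive network had −0.58 against 0.44, nor in Ctrl_R. They had 27 of 48 pairs higher and 2 lower, both Otx2, in Ppm1g_R (−0.77) and on the arrays labelled Chek1_R (−0.87). Over the mean of the 4 clones 7 of 12 rose, against 2.45% of genes, and the median was 0.85. T, the mesoderm factor Brachyury, rose by 4.44 on the arrays labelled Chek1_R, by 2.31 in Bub1b_R, 1.90 in Ppp2r1b_R and 1.05 in Ppm1g_R, and by 0.75 in Ctrl_R. Cdx2, a trophoblast and posterior factor, rose by 3.97, 1.73, 1.54 and 1.21 in the same order and had 0.39 in Ctrl_R. Mixl1, a primitive streak factor, went from undetected to detected on Dox withdrawal on the arrays labelled Chek1_R (at least 3.67-fold higher) and in Ppm1g_R (at least 3.42-fold higher), rose by 3.24 in Bub1b_R, where 1 of 3 +Dox arrays detected it, and was detected on no array of Ppp2r1b_R or Ctrl_R. The genes of this list that rose were 9 of 12 in Bub1b_R (against 3.28% of genes), 6 in Ppm1g_R (2.43%), 5 in Ppp2r1b_R (2.77%) and 7 on the arrays labelled Chek1_R (4.68%).

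**Figure D5:**
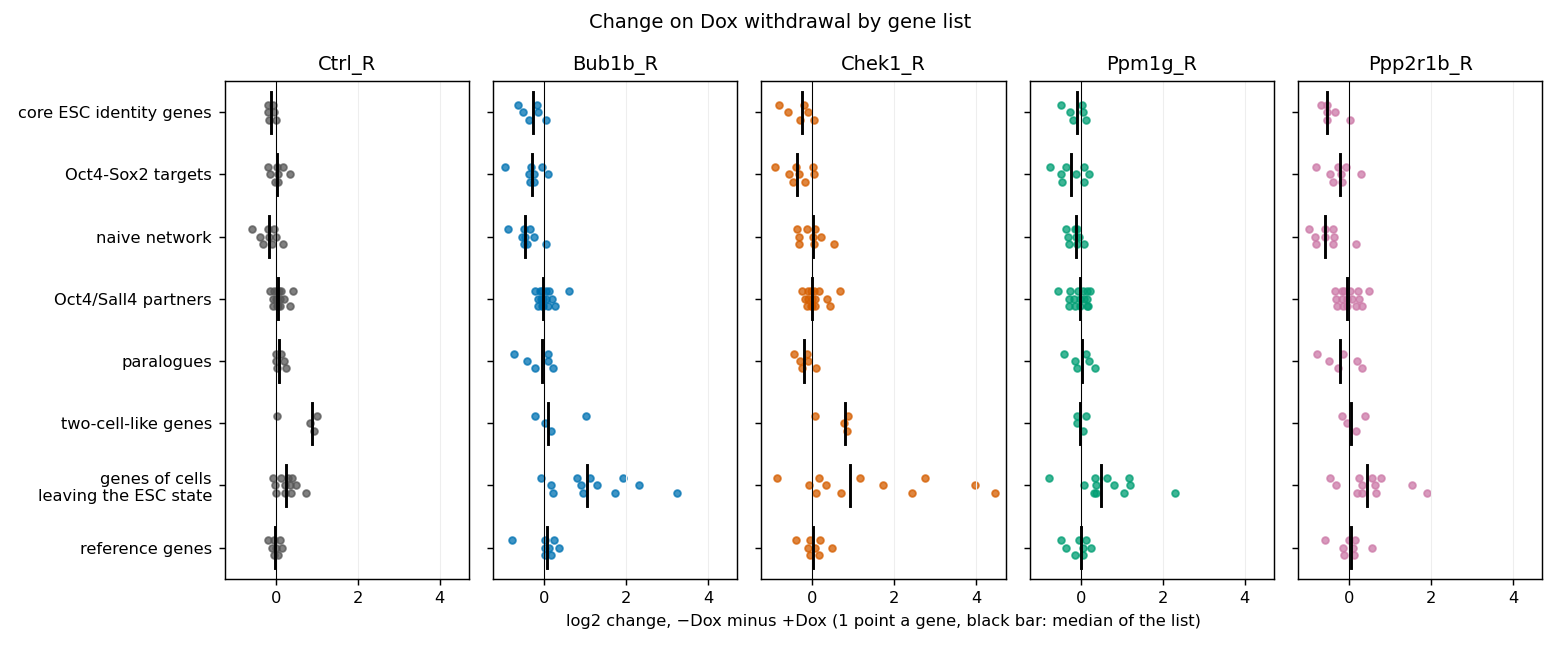
Change on Dox withdrawal (log2, −Dox minus +Dox, horizontal axis) of each tested gene, by list (rows) and clone (panels), with 1 point for a gene and a black bar at the list's median. The core ESC identity genes have medians between −0.53 and −0.08 in the 4 rescue clones, and the genes of cells leaving the ESC state between 0.44 and 1.04.

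Of 8 reference genes, 2 of 32 pairs fell (against 2.2% to 5.24% of all genes), both Hprt1, the purine salvage enzyme, in Bub1b_R (−0.77) and Ppp2r1b_R (−0.59). Utf1 had −0.63 and −0.68 in the same clones, so a gene used as a reference moved by a similar amount there. B2m (0.35) and Actb (0.24) had the next largest mean changes and were not called.

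Some markers of other cells moved with Dox withdrawal, and they are named after their values were seen. All 7 pluripotent cell markers, 4 of them members, were detected on all 30 arrays. Of the trophoblast list, Hand1 and Elf5 were detected on 0 arrays. In the mean of the clones 3 of 4 tested genes (Cdx2, Eomes and the keratin Krt8) rose, against 2.45% of genes. Eomes was detected on 10 of 30 arrays and on none of Ppp2r1b_R or Ctrl_R, so the size of its change is uncertain. The summed deposited intensity of the list, most of it Krt8, ran from 2635 to 9209 with Dox and from 6100.1 to 13489 without in the 4 rescue clones, and from 719.7 to 1042 with Dox and 1162 to 1404 without in Ctrl_R. The labels give growth on mouse embryonic fibroblasts, and the study's methods describe cells without feeders for the arrays. Of the fibroblast list, 4 to 6 of 10 genes were detected on all 3 arrays of a condition, and Col1a2, Lum and Postn on 0 arrays. Of 28 pairs 9 were higher (against 2.43% to 4.68% of all genes) and 2 lower, in Ppm1g_R and on the arrays labelled Chek1_R. Dcn (0.98) and Col1a1 (0.89) were higher in the mean of the clones, against 2.45% of genes. Dcn was detected on 12 of 30 arrays, so its size is uncertain. The summed intensity of the fibroblast list ran from 699.6 to 1206 with Dox and from 755.2 to 1433 without in the rescue clones, and from 593.6 to 763.6 and 650.2 to 794.5 in Ctrl_R. Of the primitive endoderm list, 3 or 4 of 6 genes were detected on all 3 arrays of a condition, 3 of 24 pairs were higher (against 2.43% to 4.68% of all genes) and 1 lower. All 3 higher ones, named here after their values were seen, were in Bub1b_R (Gata6 1.29, Sox17 0.80 and Sox7 0.59). Over the 30 arrays Gata6 was detected on 30, Sox17 on 13 and Sox7 on 3, so the sizes given for Sox17 and Sox7 are uncertain. In Bub1b_R, where Utf1 fell, the summed intensity of the list ran from 1727 to 1911 with Dox and from 2477 to 3043 without, with no overlap. In the other rescue clones it ran from 2017 to 3804 with Dox and from 1919 to 3193 without, and in Ctrl_R from 1492 to 2008 and from 1539 to 1987. The part of these markers in the fall of Utf1 and in the other changes of the members was not tested.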

How the data were processed

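Total RNA was measured on Illumina mouse bead arrays, 30 in all. The authors deposited a table of background-subtracted intensity values, not normalized, and the detection p-value of every probe on each array. The submitters' processing notes name lumi, with no role stated, and the authors' normalization is not given in the sources used here. Of the deposited detection p-values, 34 had turned into dates and were converted back and 26 were filled from the probe of nearest signal. Intensities were corrected and quantile-normalized with neqc (limma 3.58.1, R 4.3.3, offset 16). A probe was kept where 3 or more arrays had its detection p below 0.05, and 1 limma model of the 10 group means (20 residual and 3.38 prior degrees of freedom) was fitted over all of them, with Benjamini-Hochberg adjustment over the 15151 tested probes. Shares of all genes are over the brightest probes of the 11177 genes. The precision is limited by the 3 arrays per group.

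The text names all members, up to 3 genes per list with the largest mean change over the 4 clones, the 2 genes most like each member, and the depleted genes. Members and lists were chosen with earlier results of these data known. The alternatives were other background, scaling, offset, filter, fold, probe and pairing settings, the methods' t-test, and leaving out each array. Steps were tested on simulated data.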

Additional observations from a re-analysis of the deposited data

Results flagged for a closer look

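The change of Utf1 on Dox withdrawal differed from that in Ctrl_R by −0.65 in Bub1b_R, −0.70 in Ppp2r1b_R and −0.82 on the arrays labelled Chek1_R, by the interaction term of the limma fit. The next Dppa4 probe differed from its change in Ctrl_R by −0.78 on the arrays labelled Chek1_R and by −0.625 in Ppp2r1b_R. The dimmer Sox2 probe differed in each rescue clone, by −0.93 in Bub1b_R, −0.81 in Ppp2r1b_R, −0.76 in Ppm1g_R and −0.88 on the arrays labelled Chek1_R, while it rose by 0.62 in Ctrl_R and passed in none of the 4 clones. The 9 differences share the 6 Ctrl_R arrays. The F statistic for unequal change among the 4 clones was 11.4 for Utf1, 9.93 for Sox2, 6.30 for Dppa4 and 5.76 for Sall4 by the brightest probe. The other probes of Sox2, Dppa4 and Sall4 did not pass.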

How the results depend on the processing

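Of 1914 single-gene values under alternatives, 1809 kept their direction and side of the threshold, 51 turned sign with the adjusted p over the threshold both ways, 14 lost the call, 24 gained it and 16 reversed. For these values the cause was not tested. Median scaling gave 7 pairs different from Ctrl_R with Dox (3 otherwise), among them Dppa5a in Ppm1g_R and Ppp2r1b_R, which is not read. It gave 0 members in the mean of the 4 clones (1 otherwise) and 2 with unequal change among clones (4 otherwise). Sall4 reversed there in Ppp2r1b_R against Ctrl_R, to −0.43 without Dox and −0.32 with Dox. An offset of 50, a 2-fold limit and leaving Chek1_R out of the mean, the last chosen after seeing the data, each gave 0 members in the mean of the clones. With a 2-fold limit, 0 pairs changed on withdrawal, 0 differed from the change in Ctrl_R, and 3 and 0 differed from Ctrl_R without and with Dox. With no fold limit these were 13, 7, 18 and 16, and 5 members in the mean of the clones. The 18 were 16 lower and 2 higher, and the 16 were 13 lower and 3 higher. By the adjusted p alone, 12.7% to 18.2% of all genes were lower on withdrawal in a rescue clone, and 26.1% in the mean. For the comparisons with Ctrl_R that share was not computed, so their counts are not read as a result about the members. With the fold limit, 23.9% to 33.5% of genes differed from Ctrl_R without Dox and 13.3% to 28.8% with Dox.

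Averaging the probes of each gene gave 5 pairs that differed from the change in Ctrl_R and 1 member with unequal change among clones. It ended the calls of Sox2 (−0.12) and Dppa4 (−0.52) in Ppp2r1b_R against Ctrl_R without Dox. It reversed differences from Ctrl_R without Dox for Sall4 (−0.26 Chek1_R, −0.11 Ppm1g_R, −0.31 Ppp2r1b_R), Sox2 (0.28 Ppm1g_R) and Dppa4 (0.067 Ppm1g_R). With Dox it reversed Sox2 (0.375 Chek1_R, 0.56 Ppm1g_R, 0.47 Ppp2r1b_R), Sall4 (−0.13, −0.10 and −0.24 in that order) and Dppa4 (0.35, 0.39 and 0.035 in that order). By limma on the averages, Dppa4 in Ppp2r1b_R with Dox (adjusted p 0.725) and in Ppm1g_R without (0.48) did not pass. Nor did Sall4 in Ppm1g_R (0.227 with Dox, 0.192 without) and on the arrays labelled Chek1_R with Dox (0.148). The averages include a Sall4 probe detected on 6 of 30 arrays and a Dppa4 probe detected on 17. For Dppa4 in Ppp2r1b_R with Dox, that probe gave 0.65 and the others −0.38 and −0.16.

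With 1 array left out, 3 to 5 pairs changed on withdrawal, 0 in Ctrl_R, 3 differed from the change in Ctrl_R, 8 to 10 and 3 to 5 differed from Ctrl_R without and with Dox, 0 to 1 member changed in the mean and 2 to 5 differed among clones. Same-numbered arrays did not pair (correlations of deviations −0.08 to 0.13, 1 of 15 over 0.1), and with the replicate number as a block 3 pairs still changed on withdrawal and no count of calls differed.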
